A study of Mus musculus with 6 samples.

Results

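The act_CD4T cluster, named by the authors as activated CD4 T cells, comprised 172 of the 2084 annotated T and NK cells from mouse pancreatic tumors. Its members were the cells that carried this name in the authors' deposited annotation of 12 clusters. Of these, 56 of 516 annotated cells came from the PBS library, 88 of 843 from the mono-IL10 library and 28 of 725 from the IL10/2-Trikine library. C57BL/6 mice, of an age not given for this experiment in the sources used here, had been inoculated under the skin with 6694c2vTRP1 cells, a pancreatic tumor line of the KPC model. They received intraperitoneal PBS, mono-IL10 at 26 µg per mouse or IL10/2-Trikine at 30.6 µg per mouse every other day from day 8, for 2 doses. All 3 groups therefore carried the same tumor and differed in the injected agent. Tumors were taken on day 14, CD45+ cells were isolated with beads, and each of 5 mice per group was marked with its own hashtag antibody before the group was pooled into a single droplet library. The labels state 5 mice for each treated group, and 5 hashtags were present in the PBS library. Since each treatment was 1 library, treatment and library cannot be told apart in any comparison below, and tests over mice measure the spread within those libraries.

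CD4 T cells recognize peptide on MHC class II through a T cell receptor that signals through the CD3 chains, with CD4 as co-receptor, whereas CD8 T cells read MHC class I with a CD8 alpha and beta co-receptor. After activation, CD4 T cells raise costimulatory receptors such as ICOS and OX40 and supply help through surface ligands and cytokines. mono-IL10 is a monomeric form of interleukin-10, which signals mainly through STAT3, and IL10/2-Trikine is IL-10 extended to engage the IL-2 receptor beta chain as well, a chain that signals mainly through STAT5. The design thus asks what IL-10 did to these cells and what the added IL-2 receptor arm changed.

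The deposited cluster name was only partly matched by co-receptor transcripts. Of the 172 cells, 86 (50%, exact binomial 95% interval 42.3 to 57.7) held a Cd4 UMI (a counted RNA molecule) and no UMI of Cd8a or Cd8b1, the genes of the CD8 chains. A further 52 cells (30.2%, interval 23.5 to 37.7) held a Cd8a or Cd8b1 UMI and no Cd4 UMI, 3 held both and 31 held neither. These are called Cd4-only and Cd8-only cells below, by their UMIs. The intervals cover counting error only.

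The Cd8-only cells were unevenly spread over the pooled libraries, while their shares in single mice overlapped. By library they were 8 of 56 cells in PBS (14.3%, interval 6.38 to 26.2), 37 of 88 in mono-IL10 (42.0%, interval 31.6 to 53.0) and 7 of 28 in IL10/2-Trikine (25.0%, interval 10.7 to 44.9). After every cell was thinned to 1500 UMIs, the Cd8-only shares were 10.7%, 38.6% and 25.0%, in the same order, and the Cd4-only shares fell to 42.9%, 29.5% and 21.4% from 62.5%, 44.3% and 42.9%. As a measure of free RNA, a Cd4 UMI was found in 0.59%, 0% and 0.27% of thinned cells of the NK cluster, against 42.9%, 30.7% and 21.4% of thinned act_CD4T cells. Every PBS mouse and every mono-IL10 mouse had at least 1 Cd8-only cell. In PBS mice 1 to 5 these were 1 of 2, 3 of 4, 1 of 7, 1 of 17 and 1 of 3 cells. In mono-IL10 mice 1 to 5 they were 7 of 19, 4 of 10, 2 of 4, 7 of 21 and 10 of 15. The share was highest in PBS mouse 2. Among cells with no mouse, 1 of 23 was Cd8-only in PBS and 7 of 19 in mono-IL10. IL10/2-Trikine mice 1 and 3 had no Cd8-only cell. PBS mouse 2 had no Cd4 UMI at all among its 4 act_CD4T cells. Because of this mixture the population is called by its deposited name here, and results that the mixture touches are given for each co-receptor class.

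**Figure D1:**
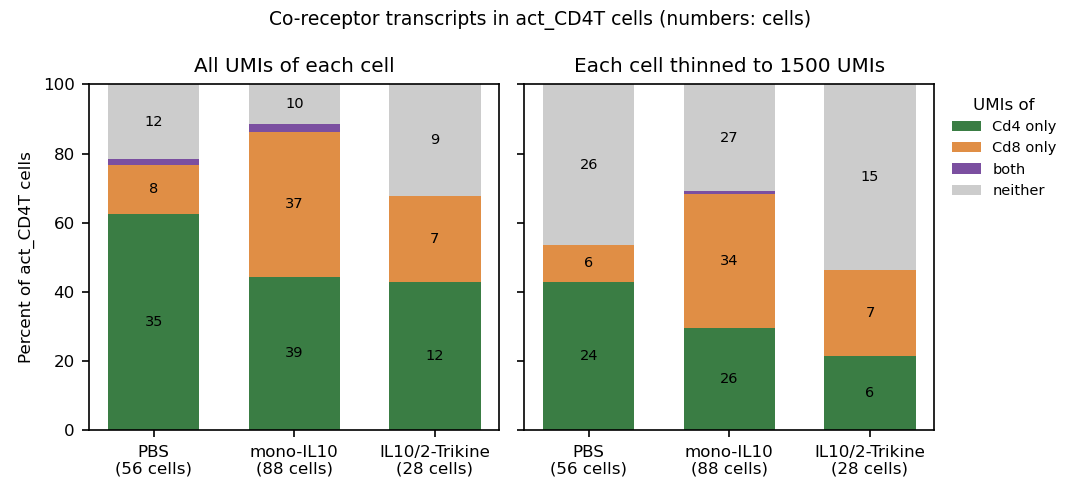
Percent of act_CD4T cells in each library (bars) with UMIs of Cd4 only, of Cd8a or Cd8b1 only, of both or of neither, with all UMIs (left) and with each cell thinned to 1500 UMIs (right); the numbers inside the bars count cells. Cd8-only cells made up 42.0% of the mono-IL10 bar and 14.3% of the PBS bar.

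Among the other clusters, mixture of this kind was not limited to act_CD4T. The naive_CD4T cluster held 15 Cd4-only and 24 Cd8-only cells, the Treg cluster (regulatory T cells) 39 and 3, and the Cycling_T cluster 5 and 152. The other chosen markers of activated CD4 T cells were present. Cd3e, a CD3 chain, stood at 6.45 UMIs per 10000 in act_CD4T and at 0.06 in NK cells. Icos stood at 7.98 per 10000 in act_CD4T, 23.9 in Treg, 8.75 in naive_CD4T and 2.81 in Cycling_T. Thus Icos, one of the genes that mark the population, was higher in Treg cells and was about level with naive_CD4T cells. These levels describe clusters that were built from the same genes, so no test is given for them.

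The genes with the largest pooled folds over other clusters included ligands and cytokines and, against Treg, CD8 and cytotoxic genes. Against Treg, Xcl1 led with at least 80.8-fold, and Cd8a (29.7-fold over a floor of 3 UMIs, as Treg had 2), Klrd1 (27.8-fold) and Cd8b1 (20.6-fold) were among the 15 leading genes. Tnfsf8, the CD30 ligand, reached 4.18 UMIs per 10000, against 0 in Treg, 1.05 in naive_CD4T and 0.138 in Cycling_T. Tnfsf11, which encodes RANKL, reached 6.07, against 0.268, 0.880 and 0.413. Ccl1, the ligand of the chemokine receptor CCR8, was found in 40 of the cells at 6.29 per 10000 and had no UMI in Treg or naive_CD4T cells, which made it at least 70.3-fold and at least 38.1-fold higher when 3 UMIs were taken as the floor of each cluster. Csf2, the gene of the cytokine GM-CSF, stood at 3.45 against 0.179 in Treg and 0 in naive_CD4T. Ccr7, a lymph node homing receptor usually linked to naive and central memory cells, was higher here (9.08) than in naive_CD4T (1.38), Treg (0.746) or Cycling_T (0.350). Il1r2, a decoy receptor for IL-1, and Lgals7, a galectin, stood at 4.56 and 4.45 in act_CD4T and at 0.110 and 0.0550 in naive_CD4T. Neither was among the 15 leading genes against Treg.

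Il2ra, Tnfrsf4 and Foxp3 had lower pooled levels than in the Treg cluster. Il2ra, the alpha chain of the high-affinity IL-2 receptor, stood at 3.38 per 10000 against 20.6 in Treg, and Tnfrsf4, which encodes OX40, at 6.46 against 20.3. Foxp3, the lineage factor of regulatory T cells, had 7 UMIs in all 172 cells (0.0985 per 10000, against 5.61 in Treg). Il2rb stood at 4.55 against 6.09 and Il2rg at 3.28 against 4.03. Mki67, a proliferation marker gene, had 16 UMIs in 12 of the 172 cells, or 0.225 per 10000 against 5.67 in Cycling_T.

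**Figure D2:**
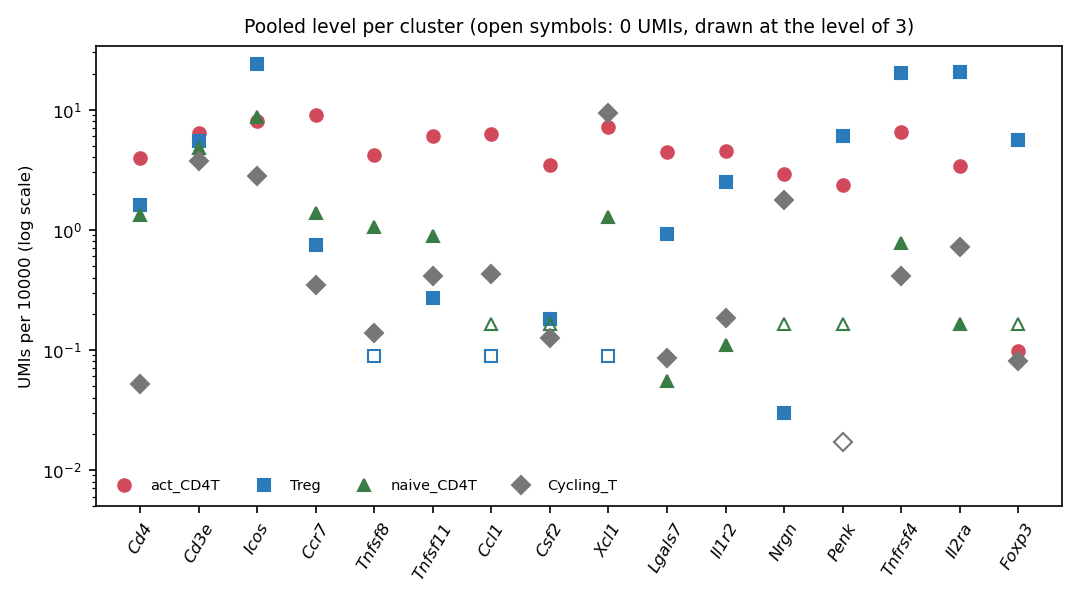
Pooled level of 16 genes in act_CD4T, Treg, naive_CD4T and Cycling_T cells of the 3 libraries, in UMIs per 10000 on a log axis; open symbols mark clusters with 0 UMIs, drawn at the level of 3 UMIs. Tnfsf8, Tnfsf11, Ccl1 and Csf2 were highest in act_CD4T, and Icos, Tnfrsf4, Il2ra, Penk and Foxp3 in Treg.

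The ligand and cytokine genes belonged to different cells within the cluster. Per 10000 UMIs, Tnfsf8 stood at 6.5 in Cd4-only and 1.17 in Cd8-only cells, Tnfsf11 at 9.14 and 2.11, Ccl1 at 11 and 0.11, and Csf2 at 6.30 and 0.30. Cd40lg, the CD40 ligand of helper cells, stood at 0.97 in Cd4-only cells and had no UMI in Cd8-only cells. Xcl1, a chemokine for cross-presenting dendritic cells that is made by CD8 T and NK cells, showed the opposite order, with 0.62 in Cd4-only and 18.3 in Cd8-only cells. Ccr7 (10.4 and 9.44) and Nrgn, a calmodulin-binding protein gene (3.02 and 3.27), were near level in both classes. Single cells carried much of some of these genes: 75 of the 115 Csf2 UMIs in PBS came from 1 cell of mouse 3, and 98 of the 154 Xcl1 UMIs in PBS from 1 cell of mouse 2.

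Helper subset genes were sparse. Tbx21, the Th1 factor, had 11, 26 and 3 UMIs in the PBS, mono-IL10 and IL10/2-Trikine libraries, and Ifng, the gene of interferon-gamma, stood at 1.2, 1.59 and 2.09 per 10000. Gata3, the Th2 factor, stood at 2.71, 1.54 and 2.09. Bcl6, the follicular helper factor, had 13, 24 and 0 UMIs, and Il21 had 4, 4 and 0. Il17a and Il2 had none, and Il10 had 1, 0 and 2. At this depth 3 UMIs, the floor used here, correspond to 0.156, 0.0672 and 0.418 per 10000 in the 3 libraries. Levels under these rest on too few UMIs to compare. The IL-2 receptor beta chain gene Il2rb stood at 4.11, 4.68 and 4.88 per 10000 and Il2rg, the common gamma chain gene, at 3.54, 3.29 and 2.51. The IL-10 receptor genes were near the floor, with 6, 14 and 2 UMIs for Il10ra and 7, 15 and 1 for Il10rb.

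The libraries differed in depth and in how many cells kept a mouse. The act_CD4T cells held 192034, 446760 and 71723 UMIs in the libraries of PBS, mono-IL10 and IL10/2-Trikine, with medians of 2797.5, 4686 and 2342.5 UMIs and of 1334.5, 1840 and 1160 genes per cell. The median percent of mitochondrial UMIs was 1.57, 1.5 and 1.32. No mouse had been assigned to 23, 19 and 5 of the cells, which leaves 2 to 17 cells for each mouse given PBS, 4 to 21 for each given mono-IL10 and 1 to 9 for each given IL10/2-Trikine. Between 408 and 700 of all barcodes occurred in each pair of libraries, and 0 barcodes were act_CD4T cells in more than 1 of them. Marker genes of other cells were summed, since several bear on the genes below. Summed over 6 mast cell markers the level was 0 in PBS, 0.0672 in mono-IL10 and 8.50 per 10000 in IL10/2-Trikine, where 91.8% came from 1 cell and the IgE receptor gene Ms4a2 was at 0. The 11 macrophage and monocyte markers summed to 6.14, 3.67 and 12.4, with ranges over mice of 1.37 to 8.62, 1.31 to 3.49 and 3.60 to 36.9. The 8 NK cell markers summed to 3.96, 2.87 and 9.48, with ranges of 0 to 11.2, 0.98 to 6.14 and 0 to 19.5, and the Ly49 genes Klra4 and Klra8 were at 0. Neutrophil markers (5 genes) summed to 0.312, 0.112 and 2.23, with Csf3r, Retnlg and Cxcr2 at 0. Dendritic cell markers (7 genes) summed to 0.677, 0.291 and 0, with Flt3, Clec9a and Fscn1 at 0, and Cd79a, Ms4a1 and Pax5 among the 6 B cell markers and Trdc and Zbtb16 of gamma-delta T and NKT cells were at 0. Epithelial, fibroblast and endothelial marker sums were under 1 per 10000 in every library.

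The first comparison asks whether the size of the population moved with treatment. Among annotated T and NK cells, act_CD4T made up 3.33%, 6.25%, 9.86%, 15.2% and 7.32% of the cells in PBS mice 1 to 5. In mono-IL10 the shares were 10.8%, 8.70%, 11.4%, 9.77% and 16.0%, and in IL10/2-Trikine they were 7.46%, 6.72%, 2.17%, 6.25% and 4.76%. Every IL10/2-Trikine mouse was below every mono-IL10 mouse, and both overlapped the PBS mice. PBS mice averaged 8.39% ± 4.46 (SD, n = 5). The mono-IL10 mice averaged 11.3% ± 2.79 (SD, n = 5), whereas those given IL10/2-Trikine averaged 5.47% ± 2.09 (SD, n = 5). The difference of IL10/2-Trikine from mono-IL10 gave p = 0.00794 in an exact two-sided permutation test, the smallest that 5 against 5 mice allow. Adjusted over the 9 tests of shares (3 denominators, 3 comparisons) it was 0.0714 by exact permutation and did not pass 0.05.

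With NK cells left out, the groups overlapped. Among T cells PBS mice averaged 12.0% ± 6.18 (SD, n = 5), mono-IL10 mice 16.4% ± 5.15 (SD, n = 5) and IL10/2-Trikine mice 12.4% ± 4.49 (SD, n = 5), with exact permutation p of 0.278, 0.873 and 0.278 for mono-IL10 against PBS, IL10/2-Trikine against PBS and IL10/2-Trikine against mono-IL10. Among the clusters named CD4 or Treg, the same averages were 28.3% ± 11.8 (SD, n = 5) for PBS, 47.1% ± 12.3 (SD, n = 5) for mono-IL10 and 43.9% ± 13.4 (SD, n = 5) for IL10/2-Trikine. The rise in mono-IL10 over PBS by this measure had an exact permutation p of 0.0397, or 0.179 adjusted over the 9 tests. Without cells holding UMIs of other lineages in the numerator, this difference went from 18.8 to 6.57 points (exact permutation p = 0.27), that of mono-IL10 from PBS among T and NK cells from 2.94 to 0.094, and that of IL10/2-Trikine from mono-IL10 among T and NK cells from -5.86 to -2.40 (exact permutation p = 0.00794, 0.0714 adjusted). With all cells kept, among the clusters named CD4 or Treg, IL10/2-Trikine against PBS gave an exact permutation p of 0.0952. There IL10/2-Trikine against mono-IL10 gave one of 0.714. A cut at 1500 detected genes kept 20 of 56 act_CD4T cells of PBS, 69 of 88 of mono-IL10 and 5 of 28 of IL10/2-Trikine, in the order of their depth, so library depth and the share cannot be told apart under it. With this cut, IL10/2-Trikine was below mono-IL10 by 18.5 points among T cells and by 52.0 among CD4 clusters, and both differences passed (adjusted exact permutation p = 0.0357 and 0.0476). The same cut turned IL10/2-Trikine against PBS among CD4 clusters from 15.6 to -35.7 points, with an adjusted exact permutation p of 0.119. Pooled with the cells that had no mouse, the shares of T and NK cells were 10.9%, 10.4% and 3.86%, so that PBS and mono-IL10 changed order. A lower share and a gain of other cells cannot be told apart here, since absolute cell numbers were not analysed.

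**Figure D3:**
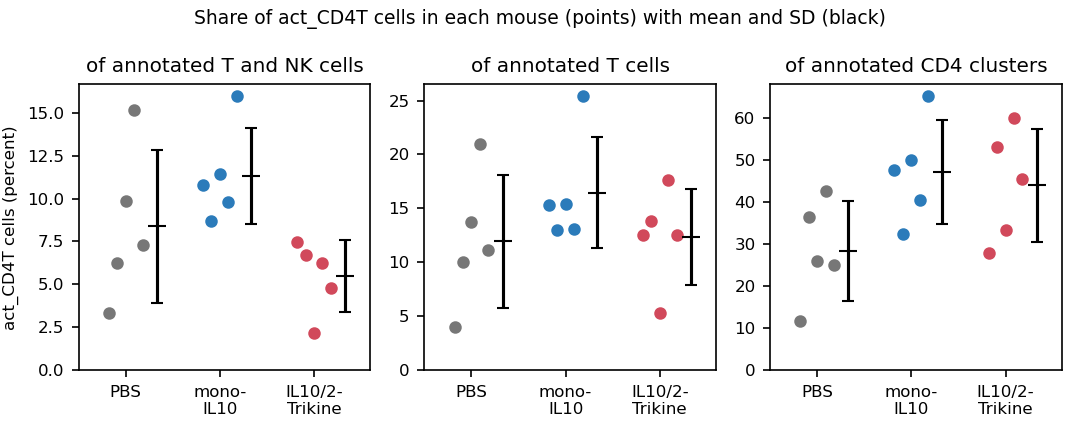
Percent of act_CD4T cells in each mouse (points) among annotated T and NK cells, annotated T cells and annotated CD4 clusters, with the group mean and SD in black (n = 5 mice per group). In the left panel all IL10/2-Trikine mice lie below all mono-IL10 mice, and in the other panels the groups overlap.

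Gene levels were then compared between treatments over mice that had at least 3 act_CD4T cells, which left 4 PBS mice (2 to 5), 5 mono-IL10 mice and 4 IL10/2-Trikine mice (1, 2, 4 and 5), so PBS mouse 1 and IL10/2-Trikine mouse 3 are not in the fits. UMIs were summed per mouse and 4877 genes were tested with edgeR's quasi-likelihood test, with Benjamini-Hochberg adjustment over all of them. Both treated groups were set against the same PBS mice, so their comparisons with PBS are not independent. Levels are given as UMIs per 10000 of a mouse's act_CD4T UMIs, and changes as log2 differences with a standard error. Relative to the whole, the median log2 difference of all genes was 0.18 for mono-IL10 against PBS, -0.25 for IL10/2-Trikine against PBS and -0.47 for IL10/2-Trikine against mono-IL10 with the scaling used (TMM). With scaling by library size alone these medians were -0.03, -0.07 and -0.06.

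In mono-IL10 against PBS, 11 of 4877 genes passed an adjusted p of 0.05 (0.226%), 8 higher (0.164%) and 3 lower (0.0615%). The higher genes were Ccl5, Ifitm1, Gzmb, S100a6, Serpine2, Ly6a, Gzma and Nkg7, and the lower ones Tyrobp, Cd74 and H2-Aa. By DESeq2 only 1 of the 11, Ccl5, passed.

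Ccl5, a chemokine of effector T and NK cells, stood at 8.08, 14.3, 9.80, 19.8 and 41.7 UMIs per 10000 in the 5 mono-IL10 mice and at 1.15, 0, 0.55 and 0 in PBS mice 2 to 5. Every mono-IL10 mouse was above every PBS mouse. In either direction, the mice of the 2 groups did not overlap in 2.75% of all genes tested. The log2 difference was 5.34 (SE 0.56, adjusted p = 2.49e-11 by edgeR and 0.000143 by DESeq2), with means of 18.7 ± 13.6 (SD, n = 5) and 0.426 ± 0.550 (SD, n = 4). Of the 873 Ccl5 UMIs in mono-IL10, 855 lay in 22 Cd8-only cells and 13 in 3 Cd4-only cells. In Cd4-only cells Ccl5 stood at 0.19 in PBS and 0.64 in mono-IL10, whereas in Cd8-only cells it stood at 0.69 and 41.8. Without cells holding a UMI of Foxp3, Cd8a, Cd8b1, Ncr1 or Klrb1c the log2 difference was 0.72 (adjusted p = 0.995 by edgeR). Nearly all Ccl5 UMIs of mono-IL10 were thus in Cd8-only cells. In the mice of the fit these were 30 of 69 cells in mono-IL10 (43.5%) and 6 of 31 in PBS (19.4%), and PBS mouse 2, with 3 Cd8-only cells of 4, had a Ccl5 level of 1.15.

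The granule genes followed the same cells. Gzmb, the gene of the protease granzyme B, stood at 2.00, 13.5, 5.55, 9.59 and 20 per 10000 in the mono-IL10 mice and at 2.30, 0, 1.10 and 0 in the PBS mice. The lowest mono-IL10 mouse was within the PBS range, and the other 4 were above it. The log2 difference was 3.50 (SE 0.57, adjusted p = 4.05e-05 by edgeR, 0.204 by DESeq2). Of 385 Gzmb UMIs in mono-IL10, 368 lay in Cd8-only cells, and the log2 difference turned to -1.83 without the cells with UMIs of other lineages. Gzma, the gene of granzyme A, had no UMI in PBS, and all 188 of its mono-IL10 UMIs lay in 6 Cd8-only cells, 92 of them in 1 cell of mouse 2. The pooled Gzma level was at least 26.9-fold higher in mono-IL10 than 3 UMIs in PBS would give. Its adjusted p of 0.00219 by edgeR rose to 0.0543 without PBS mouse 5.

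Nkg7, a granule membrane protein gene of cytotoxic lymphocytes, stood at 16.5, 15.4, 19.9, 19.6 and 26.9 in mono-IL10 and at 7.68, 4.31, 10.6 and 3.57 in the 4 PBS mice. The mice did not overlap, although PBS mouse 1, with 2 cells and not in the fit, stood at 22.0. The log2 difference was 1.67 (SE 0.36, adjusted p = 0.00511 by edgeR, 0.376 by DESeq2), and it was lost without PBS mouse 3, PBS mouse 5 or mono-IL10 mouse 5, with a largest adjusted p of 0.116. As pooled levels, Nkg7 stood at 5.25 and 14.1 in the Cd4-only cells of PBS and mono-IL10 and at 14.4 and 24.6 in the Cd8-only cells. It did not pass when Cd4-only cells alone were fitted over mice (log2 difference 1.12, adjusted p = 0.996 by edgeR). Every fit of Cd4-only cells, here and below, used only mice with at least 3 such cells. These were PBS mice 3 and 4, mono-IL10 mice 1, 2, 4 and 5 and IL10/2-Trikine mice 1 and 2. With fewer mice than the main fit, a lost call there does not show that the difference was absent.

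Ifitm1, S100a6, Ly6a and Serpine2 also had higher pooled levels in Cd4-only cells of mono-IL10 than of PBS, and all 4 passed without cells holding UMIs of other lineages (log2 differences 3.80, 2.19, 2.54 and 5.03, largest adjusted p 0.00101 by edgeR). None of them passed in the fit of Cd4-only cells given below. Of the Cd4-only cells, 19 of 35 in PBS and 9 of 39 in mono-IL10 had no mouse. These cells are in the pooled levels and in no fit over mice. Fits without cells of other lineages counted the minimum of 3 cells before those cells were left out. A mouse could thus rest on fewer, and PBS mouse 2 kept at most 1. Ifitm1, an interferon-induced membrane protein gene, stood at 9.31, 6.20, 9.15, 17.1 and 24.8 in mono-IL10 and at 0, 0.36, 3.3 and 0 in PBS, with no overlap among the mice of the fit (log2 difference 3.42, SE 0.53, adjusted p = 2.00e-05 by edgeR, 0.435 by DESeq2). Pooled over all act_CD4T cells it stood at 13.5 in mono-IL10 and 3.59 in PBS, a smaller difference than over these mice. Of the 69 PBS UMIs, 26 lay in 1 cell with no mouse, which is not in the fit. S100a6, a calcium-binding protein gene raised in activated and memory T cells, averaged 33.3 ± 9.59 (SD, n = 5) against 10.4 ± 4.09 (SD, n = 4), also with no overlap (log2 difference 1.79, SE 0.30, adjusted p = 8.74e-05 by edgeR, 0.0533 by DESeq2).

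Ly6a, which encodes the surface protein Sca-1, stood at 8.77, 6.41, 27.8, 12.8 and 9.21 against 2.30, 1.08, 6.42 and 0.893, where the highest PBS mouse was just above the lowest mono-IL10 mouse (log2 difference 2.10, SE 0.41, adjusted p = 0.00095 by edgeR, 0.0956 by DESeq2). Serpine2, a secreted protease inhibitor gene, stood at 3.15, 0.641, 6.86, 0.738 and 5.03 against 0.384, 0, 0 and 0 (log2 difference 4.92, SE 0.88, adjusted p = 0.000245 by edgeR, 0.0533 by DESeq2), although PBS mouse 1 stood at 2.75. From PBS to mono-IL10, the Cd4-only levels went from 2.91 to 18.2 for Ifitm1, from 13.6 to 34.4 for S100a6, from 4.59 to 15.5 for Ly6a and from 0.66 to 4.77 for Serpine2.

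The share of cells with a UMI moved less than the level. After thinning to 1500 UMIs, Ifitm1 was found in 21.4% of PBS cells (interval 11.6 to 34.4) and 33% of mono-IL10 cells (interval 23.3 to 43.8), and S100a6 in 78.6% and 79.5%, beside 64.1% and 79.1% of NK cells. Ly6a was found in 48.2% and 64.8%, beside 2.4% and 27.3% of thinned NK cells of the same libraries. When a mouse's Cd4-only cells alone were summed, 0 of 2460 genes passed in mono-IL10 against PBS by edgeR, with 113 at an unadjusted p under 0.05. For these groups the fit held only PBS mice 3 and 4 and mono-IL10 mice 1, 2, 4 and 5. The log2 differences were 3.71 for Ifitm1, 1.61 for S100a6, 1.94 for Ly6a and 6.91 for Serpine2 (adjusted p = 0.198, 0.309, 0.519 and 0.303). With no more than 5 UMIs counted per gene and cell, 0 of 4863 passed, with 241 at an unadjusted p under 0.05, and the log2 differences were 1.12 for Ifitm1, 0.34 for S100a6, 0.86 for Ly6a and 3.72 for Serpine2. Here and below, this cap cuts most from genes with many UMIs per cell, and more in deeper cells. S100a6 had 1419 UMIs in 79 mono-IL10 cells and 280 in 49 PBS cells, so its capped value does not measure its change.

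**Figure D4:**
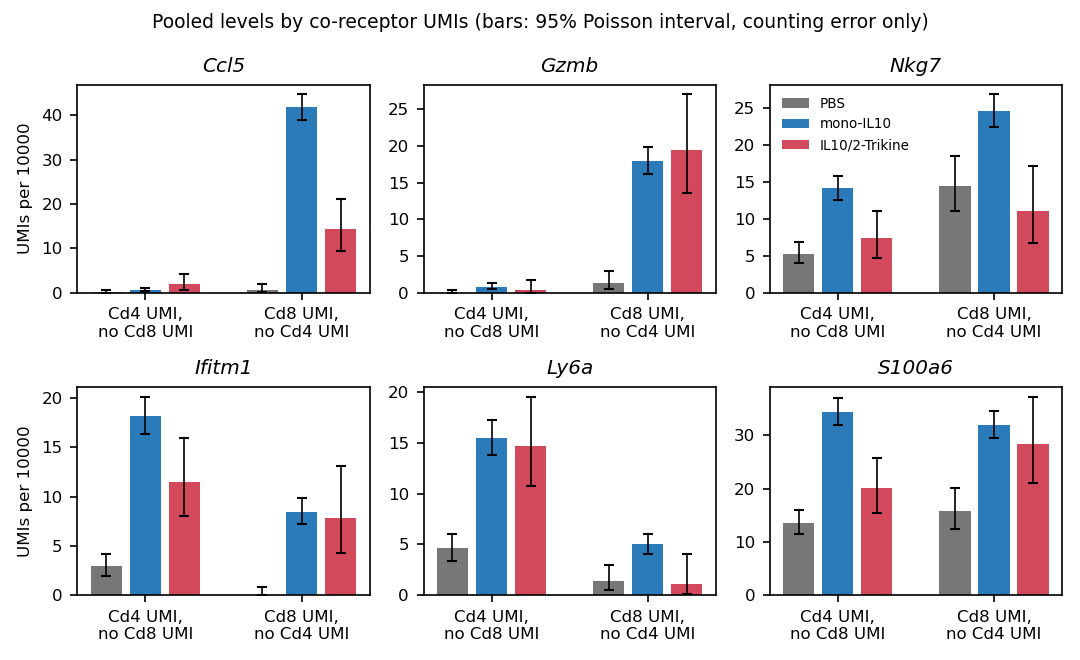
Pooled levels of 6 genes in Cd4-only cells (left group) and Cd8-only cells (right group) of each library, in UMIs per 10000 with exact Poisson 95% intervals for counting error only. Ccl5 and Gzmb were high in Cd8-only cells of the treated libraries, while Ifitm1, Ly6a and S100a6 were higher in mono-IL10 than in PBS within Cd4-only cells.

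The 3 genes that fell in mono-IL10 were Tyrobp, an adaptor of NK and myeloid receptors, and Cd74 and H2-Aa, which belong to MHC class II presentation. PBS mouse 4 had the highest level of each. Tyrobp stood at 8.25 there and at 0, 1.08 and 1.79 in PBS mice 2, 3 and 5, and 42 of its 53 PBS UMIs came from 1 cell with UMIs of both Cd4 and Cd8. Without PBS mouse 4 its adjusted p was 0.816, and that of Cd74, at 13.4 in this mouse against 1.15, 1.08 and 2.68 in PBS mice 2, 3 and 5, was 0.877. H2-Aa stood at 3.48 in the same mouse and at 0.384 or less in the other PBS mice. It had too few UMIs to be tested without PBS mouse 4, and its adjusted p was 0.0725 without mono-IL10 mouse 5. Macrophage and monocyte markers were at 6.14 in PBS and 3.67 in mono-IL10, and their part in these 3 genes was not tested.

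In IL10/2-Trikine against PBS, 12 of 4877 genes passed (0.246%), all higher, and 0 by DESeq2, where 173 had an unadjusted p under 0.05 against 314 by edgeR. Single cells carried most of this list: in 8 of the 12, most of the IL10/2-Trikine UMIs were in 1 cell. The mast cell protease genes Mcpt1, Mcpt2, Mcpt4, Cma1 and Tpsb2 had 117, 122, 25, 18 and 16 UMIs, all in 1 Cd8-only cell of mouse 4 that also held all 11 UMIs of the mast cell gene Cpa3. They had no UMI in PBS. Gzma had 130 of 132 UMIs and Gzmb 72 of 119 in another cell, of mouse 2, that held neither co-receptor. Ccl4, a chemokine of activated T and NK cells, had 83 of 98 UMIs in 1 cell of mouse 5.

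Gzmb stood at 7.38, 38.4, 8.85 and 3.99 per 10000 in IL10/2-Trikine mice 1, 2, 4 and 5 and at 2.30, 0, 1.10 and 0 in PBS mice 2 to 5, without overlap, as in 2.69% of all genes tested. The log2 difference was 3.84 (SE 0.59, adjusted p = 1.1e-05 by edgeR, 0.646 by DESeq2), and its adjusted p was 0.181 without IL10/2-Trikine mouse 2. Mouse 3, with 1 cell and not in the fit, had no Gzmb UMI. Outside the cell of mouse 2, Cd8-only cells held 35 of the Gzmb UMIs and Cd4-only cells 1.

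Ifitm1 stood at 4.69, 36, 0 and 18.4 against 0, 0.36, 3.3 and 0 (log2 difference 3.38, SE 0.56, adjusted p = 6.05e-05 by edgeR, 0.994 by DESeq2). The 4 mice were spread from 0 to 36 and the call was lost without mouse 2 (adjusted p 0.164 by edgeR). Pooled over all act_CD4T cells, Ifitm1 stood at 22.0 in IL10/2-Trikine and 3.59 in PBS, where 26 of 69 UMIs lay in 1 cell with no mouse. In Cd4-only cells pooled Ifitm1 stood at 11.5 in IL10/2-Trikine and 2.91 in PBS, but the fit of these cells over mice did not pass (log2 difference 2.68, adjusted p = 0.547 by edgeR).

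Il13, a Th2 cytokine gene, was the one helper cytokine that passed. It stood at 14.8, 1.2, 4.42 and 0.80 in IL10/2-Trikine mice 1, 2, 4 and 5 and at 0, 0, 0.18 and 0 in the PBS mice, so every IL10/2-Trikine mouse in the fit was above every PBS mouse. The log2 difference was 5.24 (SE 0.98, adjusted p = 0.000665 by edgeR, 0.994 by DESeq2). The 29 UMIs lay in 6 cells, 14 of them in 1 cell of mouse 1 that held neither co-receptor. In the fit of Cd4-only cells Il13 did not pass (log2 difference 6.53, adjusted p = 0.547 by edgeR). With all act_CD4T cells the adjusted p by edgeR was 0.554 without mouse 1. It was 0.0197 when no more than 5 UMIs were counted per gene and cell, where Il13 and Ifitm1 were the 2 of the 12 that still passed. Mouse 3, with its 1 cell, had none. Gata3, Il4 and Il5 did not pass or were too low to test. The remaining genes, Cd63, a lysosomal membrane protein gene, and Ccl8, a monocyte chemokine, stood at 17.7 and 0 in mouse 4 and at 6.04 and 22.8 in mouse 1, against at most 0.367 and 1.79 in the PBS mice of the fit. Cd63 lost its call without mouse 1 or mouse 4, and Ccl8 without mouse 1 or PBS mouse 2. Without the cell that held the mast cell proteases, which also held 12 of the 25 Cd63 UMIs, Cd63 no longer passed (log2 difference 2.80, adjusted p = 0.366 by edgeR), while Ccl8 (adjusted p = 0.00492) and Il13 (adjusted p = 0.0008) did. Macrophage and NK cell markers were also highest in IL10/2-Trikine, as given above, and their part in these genes was not tested.

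**Figure D5:**
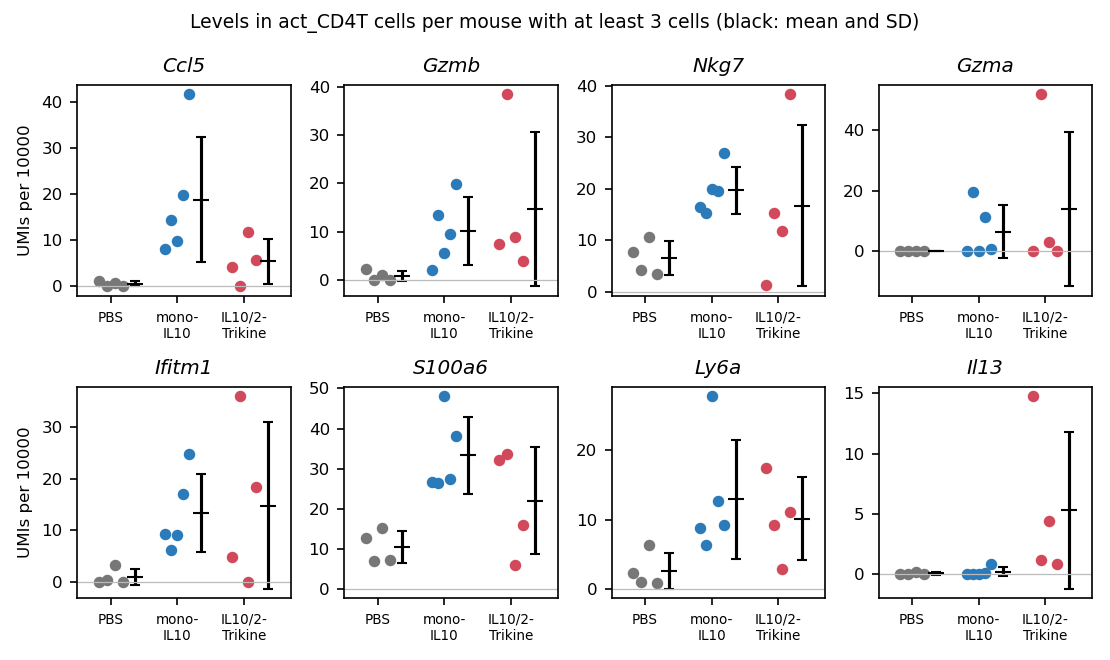
Levels of 8 genes in act_CD4T cells of each mouse with at least 3 such cells (points), in UMIs per 10000, with group mean and SD in black (4 PBS, 5 mono-IL10 and 4 IL10/2-Trikine mice). Ccl5, Nkg7, Ifitm1 and S100a6 of all mono-IL10 mice lie above all PBS mice, while in IL10/2-Trikine single mice set the highest values of Gzmb, Gzma and Il13.

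In IL10/2-Trikine against mono-IL10, the comparison of the agent with the IL-2 receptor arm against the one without it, 37 of 4877 genes passed (0.759%), 19 higher (0.390%) and 18 lower (0.369%). The balance depended on scaling, since with library size alone 22 were higher and 2 lower. DESeq2 passed 42 genes, of which 1 was higher and 41 lower, and 16 of the 37 were among them. The lower genes were Ccl5, Cd3g, Themis, B2m, Tmsb4x, Tpt1, Cd52, Ubb, Gpx4, Malat1, Ramp3, Emb, Def8, Arap2 and 4 ribosomal protein genes. The higher genes were the 5 mast cell protease genes named above, Il13, Ccl3, Ccl4, Ccl7, Ccl8, Cd63, Gzmc, S100a8, Pf4, Tyrobp, Palld, Fabp5, Thbs1 and Ifitm3. Of the 11 macrophage and monocyte markers 6 were tested and 0 passed, while all 6 had positive values and 5 an unadjusted p under 0.05 by edgeR (median 1.82), and their part in these calls was not tested. Of all 4877 genes, 1300 had positive values and 574 an unadjusted p under 0.05. Of the 11 S100a8 UMIs in IL10/2-Trikine, 8 lay in 1 cell of mouse 1. Without that mouse the adjusted p by edgeR was 0.565 for Ccl8, 0.496 for Tyrobp and 0.804 for Pf4.

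Cd3g, a CD3 chain gene, stood at 2.68, 7.21, 5.90 and 6.39 per 10000 in IL10/2-Trikine mice 1, 2, 4 and 5 and at 9.39, 14.5, 24.8, 12.1 and 15.1 in the mono-IL10 mice. The groups did not overlap, as in 4.82% of all genes tested. The log2 difference was -1.79 (SE 0.35, adjusted p = 0.0012 by edgeR, 0.000929 by DESeq2). Cd3g kept its call in each fit that left out a mouse and lost it with UMIs capped at 5 per cell (-0.90, adjusted p = 0.22), in Cd4-only cells (-1.14, adjusted p = 0.483) and without cells with UMIs of other lineages (-1.80, adjusted p = 0.116), each by edgeR. It fell just short with a minimum of 40 UMIs per gene (-1.53, adjusted p = 0.0513 by edgeR). The PBS mice in the fit stood between 7.18 and 9.60, and neither treated group differed from them past the threshold. No other gene of the 13 in the T cell receptor complex list passed by edgeR, while by DESeq2 Cd3d passed as well (adjusted p = 0.0199). By edgeR, Cd3d (log2 difference -1.13, SE 0.33) and Cd3e (-0.87, SE 0.38) had adjusted p of 0.0994 and 0.377.

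Themis, a signaling adaptor needed for T cell selection, stood at 2.01, 1.2, 0 and 1.60 in IL10/2-Trikine against 4.62, 4.70, 6.53, 4.55 and 5.03 in mono-IL10, with no overlap (log2 difference -2.26, SE 0.52, adjusted p = 0.00888 by edgeR). It fell just short without IL10/2-Trikine mouse 4 (adjusted p 0.0535 by edgeR) and lost its call with library size scaling (-1.85, adjusted p 0.0697), in Cd4-only cells (-1.64, adjusted p 0.505), with the UMI cap (-1.99, adjusted p 0.0553) and without cells of other lineages (-2.01, adjusted p 0.183). B2m, the light chain of MHC class I, averaged 26.6 ± 2.84 (SD, n = 4) against 42.5 ± 6.71 (SD, n = 5), with a log2 difference of -1.10 (SE 0.23, adjusted p = 0.00366 by edgeR, 0.00462 by DESeq2). B2m lost its call with library size scaling (-0.65, adjusted p = 0.067), with a minimum of 40 UMIs (adjusted p = 0.0544) or of 5 cells per mouse (adjusted p = 0.0535), in Cd4-only cells (-1.04, adjusted p = 0.101) and without cells of other lineages (-1.30, adjusted p = 0.164), and turned to 0.36 with the UMI cap (adjusted p = 0.58), each by edgeR. The cap also turned Tmsb4x, Tpt1, Cd52, Rpl21, Rps7 and Rps3 to positive values that did not pass. These genes and B2m have many UMIs per cell. B2m had 1756 UMIs in 88 mono-IL10 cells and 194 in 28 IL10/2-Trikine cells, and Rps3 had 1041 in 87 and 119 in 27. A cap of 5 removed more of their UMIs from the deeper mono-IL10 cells, so the capped values cannot show whether these genes differed. Ramp3, a partner of calcitonin-type receptors, averaged 1.27 ± 1.22 (SD, n = 4) against 6.39 ± 3.22 (SD, n = 5), with a log2 difference of -2.29. This call was lost without IL10/2-Trikine mouse 1 or 4 or mono-IL10 mouse 4 (largest adjusted p 0.134) and with a minimum of 40 UMIs (0.171) or of 5 cells per mouse (0.114). It was also lost with library size scaling (-1.90, adjusted p 0.0777), the UMI cap (-1.75, 0.0784), Cd4-only cells (-1.31, 0.533) and without cells of other lineages (-2.24, 0.0662). Def8 had no UMI in IL10/2-Trikine and 59 in mono-IL10. With 3 UMIs as the floor its pooled level was at least 3.16-fold lower in IL10/2-Trikine, a call that was lost in 9 of 13 fits that left out a mouse.

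Ccl5 was lower in IL10/2-Trikine than in mono-IL10, at 4.02, 0, 11.8 and 5.59 (log2 difference -2.66, SE 0.46, adjusted p = 9.01e-05 by edgeR, 0.0265 by DESeq2). This too followed the Cd8-only cells, which stood at 14.5 and 41.8, and the difference turned to 1.37 in Cd4-only cells and to 0.90 without cells with UMIs of other lineages, neither past the threshold. Il13 was higher than in mono-IL10, where 9 UMIs lay in 3 cells (log2 difference 4.07, SE 0.68, adjusted p = 4.94e-05 by edgeR). This call was lost without IL10/2-Trikine mouse 1 and in Cd4-only cells (3.09, adjusted p = 0.333 by edgeR). Ccl4 and Ccl3, with 83 of 98 and 30 of 33 UMIs in 1 cell of mouse 5, lost theirs without that mouse.

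Gene groups were then read as lists, set beside all genes tested. The list of STAT5 targets that the study had drawn up (mainly cytotoxic and NK-receptor genes, with Ly6a and Thy1 among the others) had 8 of its 10 members tested. In mono-IL10 against PBS 4 passed, Nkg7, Gzmb, Gzma and Ly6a, all higher, beside 0.226% of all genes, and the median log2 difference was 1.88 against 0.18 for all genes. In IL10/2-Trikine against PBS 2 passed, Gzmb and Gzma, beside 0.246% of all genes, and the median was 1.40 against -0.25. In both comparisons 7 of the 8 had an unadjusted p under 0.05 by edgeR, beside 313 and 314 of all 4877 genes. By DESeq2 0 passed, and none of the genes named passed with UMIs capped at 5 per cell. Of the members that did not pass, Klrd1, which encodes CD94, had log2 differences of 1.29 and 1.31, Thy1 of 1.28 and 1.10, and Prf1, the perforin gene, of 2.82 and 2.97. Between IL10/2-Trikine and mono-IL10 none of the 8 passed by edgeR (0 at an unadjusted p under 0.05, and 0 by DESeq2). Their median was 0.08 against -0.47 for all genes, and 5 of the 8 were positive beside 1300 of all 4877. In mono-IL10 the granzyme UMIs of this list lay mostly in Cd8-only cells, and in IL10/2-Trikine mostly in 1 cell with neither coreceptor, as given above.

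Costimulatory and activation genes did not pass in any comparison by edgeR. Their 14 members had medians of 0.17, -0.79 and -1.07 for mono-IL10 against PBS, IL10/2-Trikine against PBS and IL10/2-Trikine against mono-IL10, beside medians of 0.18, -0.25 and -0.47 of all genes. In the last comparison all 14 had negative values and 8 had an unadjusted p under 0.05, where 1300 of all 4877 genes had positive values and 574 an unadjusted p under 0.05. With library size scaling the median of all genes was -0.06 in that comparison. Tnfsf11 passed by DESeq2 (adjusted p = 0.0221). Tnfsf11 had a log2 difference of -1.53 (SE 0.45, adjusted p = 0.0993), Icos of -1.18 (SE 0.42, adjusted p = 0.241) and Tnfrsf9, which encodes 4-1BB, of -0.96 (SE 0.37, adjusted p = 0.314), each by edgeR. In the other comparisons 3 and 4 members had an unadjusted p under 0.05, beside 313 and 314 of all 4877 genes, and 0 passed by DESeq2.

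Of 12 tested cytokine receptor and JAK kinase genes and 20 tested STAT and feedback genes, 0 passed in any comparison by edgeR or DESeq2, with at most 1 and 3 at an unadjusted p under 0.05. The receptor and kinase genes had medians of 0.14, -0.76 and -0.92 in the order used above, with 7, 1 and 1 of the 12 positive, and the STAT and feedback genes medians of 0.21, -0.57 and -0.38, beside 0.18, -0.25 and -0.47 of all genes. Il2rb had log2 differences of 0.72 (SE 0.40), 0.43 (SE 0.48) and -0.29 (SE 0.42), and Stat3 of 0.32 (SE 0.32), -0.17 (SE 0.37) and -0.48 (SE 0.34), in the order used above. Of 83 cytosolic ribosomal protein genes 0, 0 and 4 passed by edgeR, the 4 (Rpl10, Rpl21, Rps3 and Rps7) lower in IL10/2-Trikine than in mono-IL10, where 0.369% of all genes passed as lower, 18 of the 83 passed by DESeq2 and the list median of -0.49 was close to the -0.47 of all genes.

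Among helper lists, Ccl5 was the only gene of the 9 tested of the Th1 list that passed, higher in mono-IL10 than in PBS and lower in IL10/2-Trikine than in mono-IL10. Il13 was the only one of the 4 tested of the Th2 list, higher in IL10/2-Trikine than in either other group. Beside these stand the 0.226%, 0.246% and 0.759% of all genes that passed in mono-IL10 against PBS, IL10/2-Trikine against PBS and IL10/2-Trikine against mono-IL10. Neither Ccl5 nor Il13 passed in the fits of Cd4-only cells, which held fewer mice. Nearly all Ccl5 UMIs of mono-IL10 lay in Cd8-only cells, as given above. No gene of the Tfh, Th17 or Treg lists (3, 1 and 6 tested) passed. Of the 3 Tfh genes, 2 had an unadjusted p under 0.05 by edgeR in each comparison of IL10/2-Trikine. The Tfh medians were -4.26 against PBS and -4.47 against mono-IL10, beside -0.25 and -0.47 of all genes. Bcl6 had no UMI in IL10/2-Trikine, as given above. No tested gene of the inhibitory receptor (10), naive and memory (8), interferon-stimulated (9), interferon-gamma induced (7), cell cycle (15), glycolysis (13) or survival (18) lists passed in any comparison by edgeR, nor by DESeq2. Up to 5 of the inhibitory receptor genes (mono-IL10 against PBS), 4 of the cell cycle and 3 of the survival genes (IL10/2-Trikine against mono-IL10) and at most 2 of the others had an unadjusted p under 0.05. Of all 4877 genes, 313 had one in mono-IL10 against PBS, 314 in IL10/2-Trikine against PBS and 574 in IL10/2-Trikine against mono-IL10. In the same order, the cell cycle list had medians of -0.20, 0.32 and 0.62, with 6, 10 and 12 of the 15 positive. All genes had medians of 0.18, -0.25 and -0.47, with 3044, 1795 and 1300 of 4877 positive. Lag3, with a log2 difference of 1.55 (SE 0.45) in mono-IL10 against PBS, had an adjusted p of 0.213 by edgeR. Of 19 tested migration and adhesion genes 1 passed in each comparison, S100a6 in mono-IL10 against PBS and Cd63 in both comparisons of IL10/2-Trikine, all higher. Of 16 actin cytoskeleton genes only Tmsb4x passed, lower in IL10/2-Trikine than in mono-IL10. These counts too stand beside the 0.226%, 0.246% and 0.759% of all genes.

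The treatment effect in act_CD4T was also compared with that in Treg cells, the other large CD4 cluster. In mice with at least 3 cells of each cluster (PBS mice 2 to 5, the 5 mono-IL10 mice and IL10/2-Trikine mice 1, 2 and 5), the effect differed between the clusters for 5 of 6160 genes in mono-IL10 against PBS (0.0812%), 1 in IL10/2-Trikine against PBS (0.0162%) and 7 in IL10/2-Trikine against mono-IL10 (0.114%), by edgeR's interaction test with the mouse as a block. Against PBS, the effect of mono-IL10 was larger in act_CD4T than in Treg by 5.86 for Ccl5 (SE 0.63, adjusted p = 9.35e-17), by 2.76 for Gzmb (SE 0.54, adjusted p = 0.000836) and by 1.74 for S100a6 (SE 0.35, adjusted p = 0.00122), in log2 units. Pooled Ccl5 in Treg stood at 7.99 in PBS and 5.41 in mono-IL10 per 10000, and Gzmb at 16.2 and 25.6, so Treg cells of PBS mice already had both transcripts. In act_CD4T, most Ccl5 and Gzmb UMIs of mono-IL10 lay in Cd8-only cells, as given above, whereas Treg held 3 Cd8-only cells of 127. For these genes the test thus set a cluster of mixed co-receptors beside one with few Cd8-only cells. It was not fitted by co-receptor class. Il1rl1, the IL-33 receptor gene, moved the other way, by -3.26 (SE 0.78, adjusted p = 0.034). Of 12 fits that left out a mouse, Ccl5 kept its call in all, Gzmb lost it in 2 and S100a6 in 3, each including PBS mouse 3 and mono-IL10 mouse 5, and Il1rl1 lost it in 5. Gzmb was again the gene that differed in IL10/2-Trikine against PBS, by 3.05 (SE 0.61, adjusted p = 0.00415), and this call was lost without IL10/2-Trikine mouse 2, PBS mouse 3 or PBS mouse 4, each of which left 0 genes.

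T cell receptor variable genes, which the authors had kept out of the clustering, were read from the same UMIs. A Trbv UMI was found in 27 of 56 PBS cells, 55 of 88 mono-IL10 cells and 8 of 28 IL10/2-Trikine cells, and 80 of these 90 cells showed a single Trbv gene. Trbv20 was the leading gene in 11 of the 27 PBS cells (40.7%). In mono-IL10 the leading genes were spread over 16, of which Trbv13-2 was the commonest in 7 of 55 cells (12.7%), and IL10/2-Trikine had too few cells to rank. Trbv20 led in 9 of 44 Cd4-only cells with a Trbv UMI, and Trbv13-1 in 5 of 30 Cd8-only cells. A Trav UMI was found in 36 cells, 6 of PBS, 29 of mono-IL10 and 1 of IL10/2-Trikine. Trav3-3 led in 9 of the 29 in mono-IL10, and the other libraries had too few such cells to compare. Full-length receptors and clonotypes were not analysed here, so shared variable genes do not show shared clones.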

How the data were processed

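The authors aligned reads to GRCm39 with Cell Ranger and deposited, per library, a matrix of UMI counts with hashtag counts, and a table of annotated cells from Seurat 5.1.0 (at least 1000 genes and at most 10% mitochondrial UMIs per cell, clusters named by hand). The deposited table holds cells called singlet or negative by hashtag, and no further doublet caller was run. Raw counts were used here throughout. Counts of act_CD4T cells were summed per mouse. Mice with at least 3 cells and genes with at least 15 UMIs entered edgeR 4.0.16 (R 4.3.3), with TMM scaling, the quasi-likelihood test and Benjamini-Hochberg adjustment at 0.05. DESeq2 1.42.0 was an alternative, and its adjusted p that were NA stayed NA. Shares were compared by exact two-sided permutation over mice. Scripts were tested on simulated data. Nothing in the labels pairs mice across groups. A group of 7858 annotated cells with no sample was not used. Members and gene lists were chosen with earlier results of these data known. Genes named were those past the threshold (where over 20, the 10 with the largest change each way), leading genes against other clusters, members of lists by role with the highest levels and a fixed set of receptors and helper genes. Others (Cpa3, Mki67, Prf1, Thy1 and single genes past the threshold outside this rule) were chosen after their values were seen. Total depth was 364814102 to 515236552 UMIs per library. Intervals cover counting error only. UMI totals per act_CD4T cell equalled the table's in 86.4% to 96.4% of cells, with a largest difference of 3 UMIs. Values of a few genes are not reported here.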

Additional observations from a re-analysis of the deposited data

Results flagged for a closer look

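Of 147 groups of mice examined for a single distant value, 35 held one, and in 13 of these every other mouse was at 0. Chance gives about 1 in 20 groups of continuous values, a rate that does not carry over here, since the genes were chosen for passing a test and many levels are 0. All levels are UMIs per 10000 in act_CD4T cells, and each value named was far from the others of its group. In PBS, mouse 4 stood apart for Ifitm1 (3.3), Cd74 (13.4), H2-Aa (3.48), Gzmc (5.32), Thbs1 (0.367) and Il13 (0.183), and mouse 2 for Serpine2 (0.384), Ccl3 (3.07) and Emb (12.3). In mono-IL10, mouse 1 stood apart for Palld (0.0769), mouse 2 for Mcpt1 (0.214), Tpsb2 (0.214) and Rpl21 (45.1), mouse 3 for Cd74 (2.94), Cd52 (59.1), Cd63 (1.63) and Themis (6.53), and mouse 5 for Il13 (0.838). The share of act_CD4T among T cells was also distant in mono-IL10 mouse 5, at 25.4%.

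In IL10/2-Trikine, mouse 4 stood apart for Mcpt1 (173), Mcpt2 (179.9), Mcpt4 (36.9), Cma1 (26.5) and Tpsb2 (23.6), all from 1 cell. Mouse 2 stood apart for Gzmb (38.4), Gzma (52.1) and H2-Aa (2.00). Mouse 1 stood apart for Ccl8 (22.8), Palld (8.05), Pf4 (6.71), S100a8 (6.71) and, on the low side, Rps7 (18.8), and mouse 5 for Ccl3 (24.0), Ccl4 (67.1) and Serpine2 (3.99).

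The effect of treatment differed between act_CD4T and Treg cells in 13 cases by edgeR's interaction test. The co-receptor classes of act_CD4T were not split in this test. Differences are log2 values, act_CD4T minus Treg. For mono-IL10 against PBS they were 5.86 for Ccl5, 2.76 for Gzmb, 1.74 for S100a6, -3.26 for Il1rl1 and -6.63 for Ccl3 (adjusted p = 0.0285). For IL10/2-Trikine against PBS the difference was 3.05 for Gzmb. For IL10/2-Trikine against mono-IL10 it was 5.87 for Ccl3 (adjusted p = 0.000213), 4.34 for Ccl4 (adjusted p = 7.36e-05), -2.06 for S100a6 (adjusted p = 7.36e-05), -3.38 for Ccl5 (adjusted p = 0.000891), -4.63 for Lgals7 (adjusted p = 0.00237), -6.01 for Gzma (adjusted p = 0.00381) and -6.80 for Def8 (adjusted p = 0.0212). Ccl3 and Ccl4 in IL10/2-Trikine rested on 1 cell of mouse 5, and Def8 had no UMI there, so its fitted value is no bound. Nor is that of Gzma, which was at 0 in Treg of PBS and mono-IL10 and had 130 of its 132 act_CD4T UMIs of IL10/2-Trikine in 1 cell. Its difference ran from -14.45 to 1.59 when a mouse was left out and lost its call in 3 of 12 fits. In the same fits of IL10/2-Trikine against mono-IL10, Ccl5 lost its call in 2, Lgals7 in 3 and Def8 in 5, and Ccl3 and Ccl4 in 1 each, while S100a6 kept it. Ccl3 in mono-IL10 against PBS lost its call in 5.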

How the results depend on the processing

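No paired analysis was possible because hashtag numbers do not tie mice of different groups to each other. The counts of genes past the threshold (11, 12 and 37 for mono-IL10 against PBS, IL10/2-Trikine against PBS and IL10/2-Trikine against mono-IL10) moved with most choices, and the cause was not tested. With genes of at least 40 UMIs they were 3, 0 (145 at an unadjusted p under 0.05 by edgeR) and 4. With genes of at least 1 UMI mono-IL10 against PBS gave 18, and with mice of at least 1 cell also 18. With mice of at least 5 cells the comparisons of IL10/2-Trikine gave 7 and 11, and without cells holding UMIs of other lineages 7 and 10. DESeq2 gave 1, 0 and 42, and library size scaling gave 24 for IL10/2-Trikine against mono-IL10. Of 3 alternatives chosen after seeing the data, Cd4-only cells gave 0, 0 and 4 (113, 181 and 227 at an unadjusted p under 0.05), a cap of 5 UMIs per gene and cell gave 0, 3 and 1 (241, 362 and 550), and leaving out the mast cell protease cell gave 23 in the last comparison. The Cd4-only fits held fewer mice, and the cap cut abundant genes most, as given above. Leaving out 1 mouse at a time gave 9 to 13, 7 to 15 (7 without IL10/2-Trikine mouse 4) and 13 to 46 genes (13 without IL10/2-Trikine mouse 4, 16 without mouse 1, 19 without mono-IL10 mouse 1 or 4).

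For the difference from Treg, 5, 1 and 7 genes became 8 and 12 (first and last comparison) with at least 40 UMIs and 9, 2 and 13 with library size scaling. Leaving out 1 mouse gave 1 to 7 (1 without PBS mouse 3 or mono-IL10 mouse 5, 3 without PBS mouse 5), 0 to 4 (0 without IL10/2-Trikine mouse 2, PBS mouse 3 or PBS mouse 4, with 178, 163 and 218 at an unadjusted p under 0.05 by edgeR, 2 without PBS mouse 2 and 4 without IL10/2-Trikine mouse 1) and 3 to 10 (3 without IL10/2-Trikine mouse 5, 4 without IL10/2-Trikine mouse 1 or mono-IL10 mouse 2).

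Differences in shares are in percentage points. Pooling cells with no mouse turned mono-IL10 against PBS to -0.414 among T and NK cells and -1.20 among T cells, and IL10/2-Trikine against PBS to -7.01 among T cells. The last turned to -0.471 without cells of other lineages, -1.60 without PBS mouse 1, -0.105 without PBS mouse 2 and -0.938 without IL10/2-Trikine mouse 4. With only cells of at least 1500 genes, IL10/2-Trikine against PBS was -13.3 among T cells and -35.7 among CD4 clusters. Under the same cut IL10/2-Trikine against mono-IL10 passed with -11.3, -18.5 and -52.0 among T and NK cells, T cells and CD4 clusters (adjusted exact permutation p = 0.0357, 0.0357 and 0.0476). Among CD4 clusters it turned to 4.23 without cells of other lineages, 1.37 without mono-IL10 mouse 5 and 0.860 without IL10/2-Trikine mouse 1. Leaving out 1 mouse gave, for the 3 comparisons in order, 1.68 to 4.64, -4.18 to -1.22 and -6.51 to -4.70 among T and NK cells, 2.24 to 6.74, -1.60 to 2.64 and -5.42 to -1.85 among T cells, and 14.2 to 22.5, 11.5 to 19.6 and -7.20 to 1.37 among CD4 clusters.

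Of the genes past the threshold, log2 differences reversed for Gzmb in mono-IL10 against PBS (-1.83 without cells of other lineages), Ccl4 in IL10/2-Trikine against PBS (-0.21 in Cd4-only cells) and Ccl5 in IL10/2-Trikine against mono-IL10 (0.90 and 1.37 under these settings). With the cap of 5 UMIs the sign also changed, in IL10/2-Trikine against mono-IL10, for Tmsb4x (0.45), B2m (0.36), Tpt1 (0.44), Cd52 (0.37), Rpl21 (0.27), Rps7 (0.35) and Rps3 (0.0857). For these abundant genes the cap removed more UMIs from the deeper mono-IL10 cells, so these signs do not show a reversal of the levels. The 28 IL10/2-Trikine cells and 71723 UMIs limit what could be detected there.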
